A study of Mus musculus with 24 samples.

Results

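The small leucine-rich proteoglycans (SLRPs) are secreted matrix proteins built around a chain of leucine-rich repeats, and 10 of their genes were followed across the mouse molar mesenchyme libraries: Aspn, Dcn, Bgn, Lum, Kera, Fmod, Ogn, Omd, Prelp and Epyc. They were listed by gene name and not by a cut on measured values, though earlier results of these data were known when the list was made. All come from the 56748 genes of the count table, and each symbol matched 1 row. Tooth germs of the first mandibular molar came from ICR mouse embryos at the cap stage (embryonic day 13) and the bell stage (embryonic day 15), and the comparison asked how the mesenchyme differs between stages and between its tongue-side (lingual, L) and cheek-side (buccal, B) parts. RNA was sequenced from 8 groups of 3 libraries. Cap-W and Bell-W are undivided germs. Germs cut with a fine needle gave Cap-L with Bell-L from the tongue side and Cap-B with Bell-B from the cheek side. The 2 cultured groups, Cap-B+2D and Cap-L+2D, are cap-stage parts grown separately for 2 days. All mice were of the same stock, and the labels name no transgene, deletion or drug. The methods name 36 embryos from 3 pregnant mice, triplicates and 2 biological replicates, and no source says which libraries share animals, so a p-value here measures only the spread between these libraries, which may be technical. The mesenchyme was freed from the epithelium with dispase II before RNA extraction, while the design text calls the W samples whole tooth germs.

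SLRPs bind collagen fibrils in the extracellular matrix and are known to limit fibril width and set fibril spacing. Many carry chondroitin, dermatan or keratan sulfate chains, and some bind growth factors of the TGF-beta family. In teeth they are known as components of the dental pulp, the predentin and the periodontal ligament. Decorin (Dcn), biglycan (Bgn) and asporin (Aspn) form class I. Lumican (Lum), keratocan (Kera), fibromodulin (Fmod), osteoadherin (Omd) and Prelp form class II, and osteoglycin (Ogn) and epiphycan (Epyc) belong to class III.

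In the GRCm39 build used for the counts, 9 of the 10 genes lie in 3 clusters. Aspn (chr13:49697919-49721041), Omd (chr13:49735938-49746298) and Ogn (chr13:49761522-49777977) follow each other on the plus strand. Dcn (chr10:97315471-97354005), Lum (chr10:97400990-97408565), Kera (chr10:97442741-97449554) and Epyc (chr10:97479930-97518316) form a plus-strand run on chromosome 10. Prelp (chr1:133838042-133849152, minus strand) and Fmod (chr1:133964992-133976015, plus strand) are neighbours, and Bgn stands alone (chrX:72527208-72539539, plus strand). Reads were assigned to exons without using their strand. The Epyc exons share 40.7% of their bases with the antisense gene Gm10754, those of Prelp share 9.68% with Gm15851, and reads there cannot be told apart.

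RefSeq promoter entries were found for 8 of the 10 genes, all but Dcn and Lum. The 250 bases upstream of the RefSeq start of Aspn, Omd and Ogn are shown. They were picked because, among the 10 genes, these 3 neighbours had the most alike patterns over the 8 group means. The sequences are from RefSeq (GRCm38.p6) and run 5′ to 3′ on the plus strand; each was found once in GRCm39, at chr13:49697669-49697918, chr13:49735688-49735937 and chr13:49761241-49761490. Capitals mark matches on either strand to the core promoter letters TATAAA, to the E-box letters CANNTG or to the Runx-type letters TGTGGT.
Aspn: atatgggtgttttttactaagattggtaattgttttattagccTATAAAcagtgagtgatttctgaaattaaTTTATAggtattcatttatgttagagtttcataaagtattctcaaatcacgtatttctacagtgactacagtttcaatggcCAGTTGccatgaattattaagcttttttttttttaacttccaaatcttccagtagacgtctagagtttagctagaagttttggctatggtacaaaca
Omd: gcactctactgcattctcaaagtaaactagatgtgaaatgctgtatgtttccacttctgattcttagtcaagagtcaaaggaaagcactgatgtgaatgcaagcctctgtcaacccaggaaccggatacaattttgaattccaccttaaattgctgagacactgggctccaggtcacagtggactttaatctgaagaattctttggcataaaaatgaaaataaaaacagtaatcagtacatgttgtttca
Ogn: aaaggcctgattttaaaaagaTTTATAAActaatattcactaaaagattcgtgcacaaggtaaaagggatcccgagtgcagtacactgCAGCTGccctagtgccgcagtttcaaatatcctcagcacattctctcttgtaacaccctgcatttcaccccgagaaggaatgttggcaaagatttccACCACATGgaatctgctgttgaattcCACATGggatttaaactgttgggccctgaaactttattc
TATAAA stood in the windows of Aspn and Ogn, against 13.0% of the 27025 mouse promoters of the same length. CANNTG stood in 4 of the 8 windows (Fmod, Aspn, Ogn and Bgn), taking the first of 2 Epyc entries, against 66.0% of promoters, and the second Epyc entry held it too. TGTGGT stood only in the Ogn window, where its minus-strand match overlaps a CANNTG, against 14.2%. The Smad-type letters CAGACA were in none of the 8, against 17.1%. The AP-1-type letters TGANTCA were in none either, against 6.87%. The Omd window held none of the 5 motifs. A match describes letters only and is not a binding site.

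The library totals ran from 20581720 to 39266497 counts, so that 3 counts, the limit a count of 0 allows, are worth 0.0764 to 0.146 CPM (counts per 1000000 counts). Levels are given in CPM after TMM scaling over all 24 libraries, and as CPM per kilobase of exon (RPKM) where genes are compared with each other. All 8 dental mesenchyme markers examined, among them Msx1 and Pax9, were above the floor in every group, with a summed level of 1096 to 1123 CPM in Cap-L+2D and 1828 to 2172 CPM in Cap-W, the lowest and highest groups. Epithelial markers were present too, at 30.4 to 31.8 CPM in Cap-B+2D and 449.8 to 1835 CPM in Bell-W. In Cap-W replicate 1 the 100 most abundant genes took 23.9% of counts, against 13.8% to 17.5% in the other 23 libraries. Bell-W replicate 3 held the highest epithelial sum of the 24 libraries.

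Counted per length, SLRP transcripts were led by Lum or Bgn in all 8 groups. The 10 genes together summed to 116 ± 1.09 RPKM (SD, n = 3) in Cap-W, 252 ± 3.67 in Cap-L and 464 ± 0.805 in Cap-B. At the bell stage the sums were 663 ± 79.9 in Bell-W, 974 ± 30.9 in Bell-L and 719.8 ± 21.3 in Bell-B, and after culture 712 ± 8.88 in Cap-L+2D and 640.1 ± 8.16 in Cap-B+2D. Bell-L thus held the highest sum and Cap-W the lowest. Lum made up 38.7% of the SLRP RPKM in Cap-L and 31.6% in Bell-L. Bgn took the lead in Cap-W with 40.1% and in Cap-B+2D with 40.8%. The share of Aspn with Ogn was largest in Bell-L, at 20.5% and 18.3%. Kera made up 6.46% in Cap-B and 0.377% in Cap-L.

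**Figure D1:**
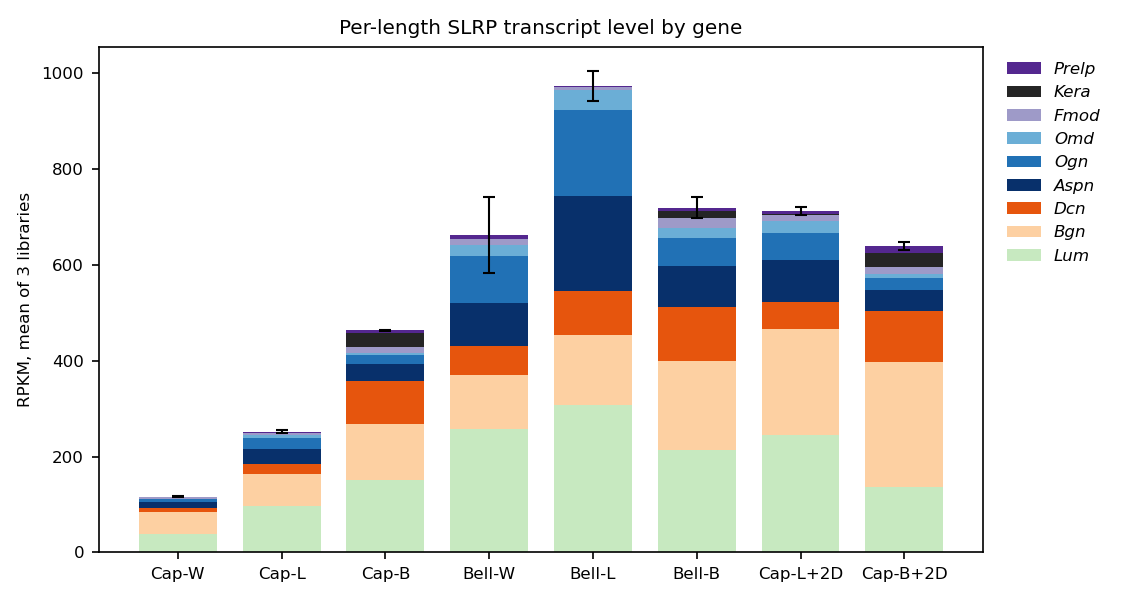
Stacked bars give the mean per-length level (RPKM, from 0) of 9 SLRP genes in each of the 8 groups, and the error bars give the SD of their summed level over 3 libraries. Epyc is too low to be seen. Bell-L reached the highest sum and Cap-W the lowest, and the black band of Kera is visible in the 3 buccal groups.

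Aspn, which binds collagen and TGF-beta and is known as a periodontal ligament protein, was most abundant in Bell-L. Its 3 libraries read 79.3, 76.7 and 74.4 CPM in Cap-L, 439.7, 493 and 480.3 in Bell-L and 214, 212 and 198 in Cap-L+2D. The buccal libraries read 81.5, 85.1 and 86.1 CPM in Cap-B, 199, 217 and 194 in Bell-B and 109.6, 102 and 100.3 in Cap-B+2D. The undivided libraries read 36.5, 22.2 and 26.2 CPM in Cap-W and 267, 203 and 168 in Bell-W. The order of the means was Bell-L, Bell-W, Cap-L+2D, Bell-B, Cap-B+2D, Cap-B, Cap-L and Cap-W, in which Bell-W, Cap-L+2D and Bell-B overlapped and each other neighbouring pair did not.

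Ogn, also called mimecan and named for bone-inducing activity, had nearly the same order. The lingual libraries read 55.1, 59.9 and 57.4 CPM in Cap-L, 429.7, 475 and 468 in Bell-L and 145, 144 and 133 in Cap-L+2D. The buccal ones read 49.6, 50.0 and 46.0 CPM in Cap-B, 145, 162 and 146 in Bell-B and 66.0, 64.3 and 58.8 in Cap-B+2D. The undivided ones read 15.9, 14.0 and 15.5 CPM in Cap-W and 312, 237 and 195 in Bell-W. Bell-L stood apart above Bell-W, while Bell-B overlapped Cap-L+2D and Cap-B+2D overlapped Cap-L.

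Omd (osteoadherin), a keratan sulfate proteoglycan of bone and dentin, was the least abundant of the chromosome 13 trio. Its lingual libraries read 12.1, 12.4 and 11.6 CPM in Cap-L, 87.5, 98.0 and 93.7 in Bell-L and 60.7, 58.2 and 54.3 in Cap-L+2D. The buccal libraries read 8.17, 8.12 and 7.78 CPM in Cap-B, 42.3, 47.3 and 43.4 in Bell-B and 20.4, 18.7 and 17.7 in Cap-B+2D, below their lingual counterparts in each of the 3 settings. Cap-W read 2.95, 2.57 and 2.73 CPM and Bell-W 58.5, 53.3 and 40.4, so that Bell-W overlapped Cap-L+2D and Bell-B. Over the 8 group means of log2 CPM, Pearson's r was 0.99 between Aspn and Ogn, 0.98 between Aspn and Omd and 0.97 between Ogn and Omd, which describes 8 points from shared libraries. Ecm2, an SLRP-like gene next to Aspn on the same strand, stayed low, at 2.05 ± 0.0681 CPM (SD, n = 3) in Cap-L and 7.63 ± 0.82 in Bell-L.

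Lum, which regulates collagen fibril assembly in the cornea and other connective tissue, resembled that trio more than its own chromosomal neighbours (r = 0.96 with Aspn, 0.83 with Dcn and 0.13 with Kera). Its libraries read 239, 246 and 231 CPM in Cap-L, 734, 772 and 756 in Bell-L and 590.5, 611 and 596 in Cap-L+2D. They read 364, 369 and 369.9 CPM in Cap-B, 522, 540.1 and 509.9 in Bell-B and 349.7, 335 and 322 in Cap-B+2D. In the undivided germs they read 76.3, 106 and 96.9 CPM in Cap-W and 721, 675 and 502 in Bell-W. Its higher side changed from buccal at the cap stage to lingual at the bell stage and in culture.

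Dcn, the prototype of the family and a TGF-beta-binding proteoglycan, was high in every buccal group. It read 535, 521 and 536 CPM in Cap-B, 648, 675 and 647 in Bell-B and 623, 622 and 610.4 in Cap-B+2D. In the lingual groups it read 121, 124 and 119 CPM in Cap-L, 528, 538 and 523 in Bell-L and 331, 334 and 328 in Cap-L+2D. The buccal values spanned little, while Cap-L stood far below the other lingual groups, and Cap-B overlapped Bell-L. Cap-W read 38.9, 54.8 and 54.6 CPM and Bell-W 384, 358 and 335.

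Bgn, a chondroitin or dermatan sulfate proteoglycan of bone and dentin, was highest in culture. Its values were 1340.2, 1353 and 1361 CPM in Cap-L+2D and 1565, 1595 and 1613 in Cap-B+2D. They were 903, 889 and 882 CPM in Bell-L and 1120.1, 1143 and 1126 in Bell-B. At the cap stage they were 398, 394 and 404 CPM in Cap-L and 726, 712 and 707 in Cap-B. Every cultured library thus lay above every library of the 6 uncultured groups, which included Cap-W at 311, 275 and 266 CPM and Bell-W at 606, 669 and 761 CPM.

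Fmod and Prelp, which both bind collagen, were correlated across groups (r = 0.92 over 8 group means), though after culture Prelp and not Fmod was called higher in the buccal part. Fmod read 13.8, 16.3 and 15.6 CPM in Cap-L, 40.3, 40.3 and 40.2 in Cap-B, 20.5, 22.2 and 21.5 in Bell-L and 67.6, 70.6 and 71.8 in Bell-B. After culture it read 43.2, 41.3 and 41.8 CPM in Cap-L+2D and 47.1, 47.7 and 47.6 in Cap-B+2D. Bell-B was the highest group for Fmod and did not overlap Cap-B+2D, while Bell-W, at 43.7, 34.6 and 61.1 CPM, overlapped both cultured groups. Prelp, an anchor between basement membrane and matrix, read 8.62, 8.01 and 9.14 CPM in Cap-L, 19.1, 17.4 and 17.6 in Cap-B, 6.81, 7.22 and 6.71 in Bell-L and 28.4, 27.5 and 28.2 in Bell-B. After culture it read 19.4, 18.1 and 19.1 CPM in Cap-L+2D and 51.2, 51.9 and 53.4 in Cap-B+2D, the highest group. The undivided germs read 1.39, 2.86 and 2.33 CPM in Cap-W and 23.6, 24.9 and 35.9 in Bell-W, and Fmod in Cap-W read 9.06, 8.46 and 10.2 CPM.

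Kera, the keratan sulfate proteoglycan best known from the corneal stroma, marked the buccal libraries. It read 65.0, 72.2 and 67.8 CPM in Cap-B, 30.7, 34.6 and 30.7 in Bell-B and 73.2, 68.6 and 64.9 in Cap-B+2D. The lingual libraries read 2.04, 2.03 and 2.44 CPM in Cap-L, 2.13, 2.22 and 2.23 in Bell-L and 5.13, 5.58 and 5.06 in Cap-L+2D. The buccal and lingual libraries did not overlap anywhere. The undivided libraries read 1.83, 0.625 and 1.3 CPM in Cap-W and 0.615, 0.753 and 0.743 in Bell-W, below both parts of their own stage. Epyc, a cartilage proteoglycan, had 0 to 12 counts per library and a highest group mean of 0.326 ± 0.0646 CPM (SD, n = 3) in Bell-B. It lay near the floor and passed the filter on low counts in no comparison.

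**Figure D2:**
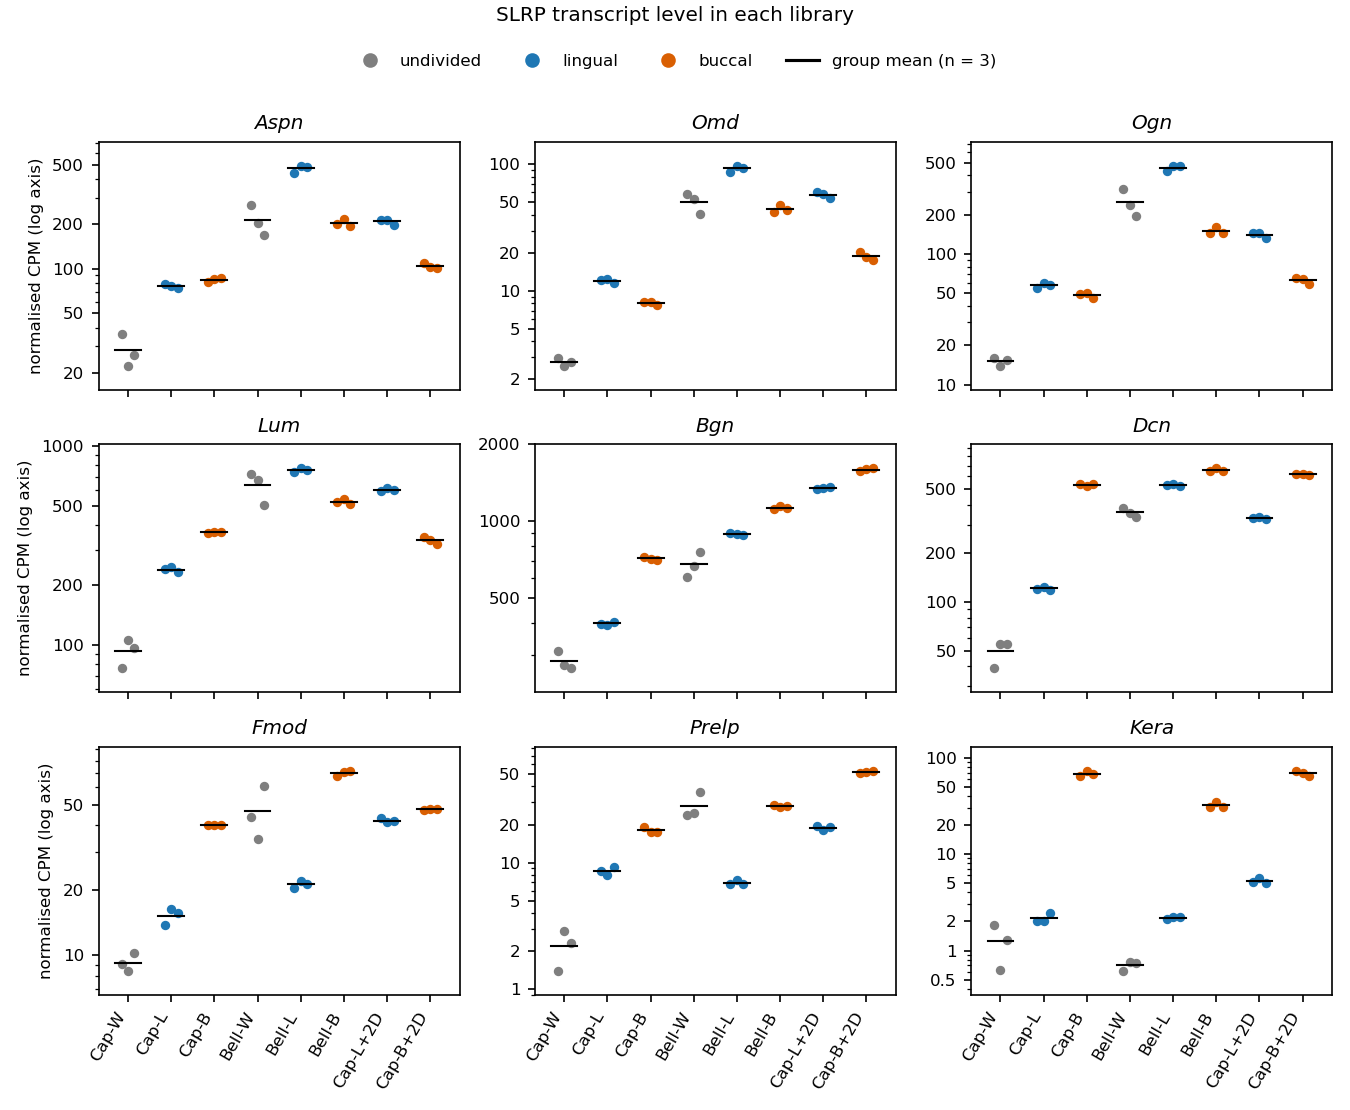
Each panel plots 1 gene, with normalised CPM on a log axis and 1 point per library in the 8 groups (grey undivided, blue lingual, orange buccal; black lines are means of 3). Bell-L is the highest group for Aspn, Omd, Ogn and Lum, and for Kera every orange point of any setting lies above every blue point. Within each setting the orange and blue points are apart for all 9 genes. By CPM before TMM scaling, 52.5%, 46.0% and 59.8% of all genes tested were apart at the cap stage, at the bell stage and in culture.

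At the cap stage, the buccal part held more SLRP transcripts than the lingual part. Of 9 genes tested, 6 were higher and 1 was lower in Cap-B, where a call means an edgeR adjusted p under 0.05 and a log2 fold change beyond 0.5. Of all 20653 genes tested 17.5% were called, and the median log2 fold change was 0.87 over the members and -0.01 over all genes. Kera was 32.2-fold higher in Cap-B (log2 fold change 5.01 ± 0.08 SE, edgeR adjusted p = 2.08e-18) and Dcn 4.45-fold (2.15 ± 0.04, edgeR adjusted p = 2.99e-17). Fmod, Prelp, Bgn and Lum followed at log2 fold changes of 1.42, 1.10, 0.87 and 0.65. Omd was 1.47-fold lower in Cap-B (edgeR adjusted p = 1.42e-05). Aspn and Ogn differed by less than the fold limit, with log2 fold changes of 0.16 and -0.22.

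At the bell stage, the chromosome 13 trio and Lum were on the lingual side. Of the 9 genes, 3 were higher and 4 lower in Bell-B, beside 12.9% of the 21181 genes tested. Ogn was 3.03-fold lower in Bell-B (log2 fold change -1.60 ± 0.04 SE, edgeR adjusted p = 1.27e-31), Aspn 2.31-fold, Omd 2.1-fold and Lum 1.44-fold. Kera was 14.6-fold higher in Bell-B (edgeR adjusted p = 2.21e-32), Prelp 4.06-fold and Fmod 3.27-fold. Dcn and Bgn, at log2 fold changes of 0.31 and 0.34, stayed under the fold limit. The members' median was 0.31, against 0.00 over all genes.

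The cultured parts showed the same 4 genes on the lingual side. Of the 9 genes, 3 were higher and 4 lower in Cap-B+2D than in Cap-L+2D, beside 25.1% of the 21195 genes tested. Omd was 3.05-fold lower in Cap-B+2D (log2 fold change -1.61 ± 0.06 SE, edgeR adjusted p = 4.76e-18), Ogn 2.25-fold, Aspn 2.0-fold and Lum 1.79-fold. Kera was 13.1-fold higher (edgeR adjusted p = 4.45e-24), Prelp 2.75-fold and Dcn 1.86-fold. Bgn and Fmod differed by log2 fold changes of 0.23 and 0.17, below the limit. The members' median was 0.17 and that of all genes 0.00.

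**Figure D3:**
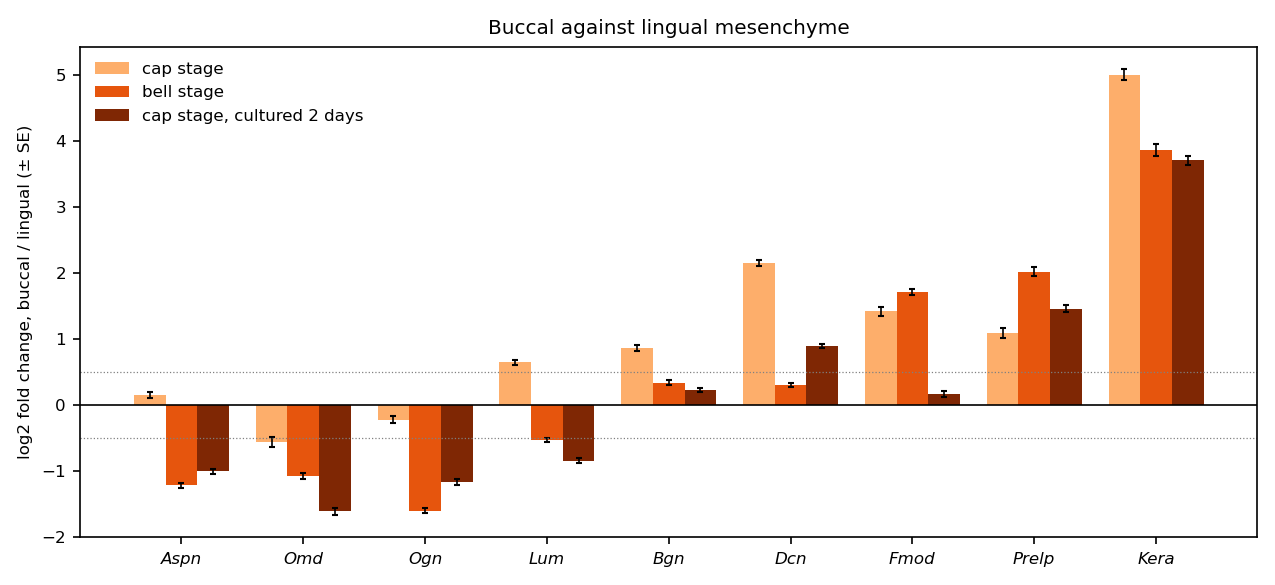
Bars give the log2 fold change of the buccal over the lingual part for 9 SLRP genes at the cap stage, at the bell stage and after culture, with SE, and dotted lines mark the fold limit of 0.5. Kera and Prelp stay above the upper line in all 3 settings, and Aspn, Omd, Ogn and Lum fall below the lower line at the bell stage and in culture.

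Marker genes of other cell types moved with the side. All 10 skeletal muscle markers examined, among them Myod1 and Myog, were higher in the buccal part in each of the 3 settings. Their summed level was 22.5 to 24.4 CPM in Cap-L and 255 to 271 in Cap-B, 126 to 134 in Bell-L and 1074 to 1091 in Bell-B, and 339 to 363 in Cap-L+2D and 4374 to 4569 in Cap-B+2D. Myf5 had 1 to 2 counts per library in Cap-L. Between Cap-B and Cap-B+2D this sum rose. Of the 9 tested members, 3 (Prelp, Omd and Bgn) were called higher in that comparison and the rest were not. This share is near the 34.5% of all genes called. Kera, among the rest, read 68.3 ± 3.6 CPM in Cap-B and 68.9 ± 4.16 CPM in Cap-B+2D (SD, n = 3). The relation of the members to the muscle sum was not tested. Of 6 Schwann and glial markers, 6 were higher in Cap-B, at 61.3 to 66.3 CPM against 26.7 to 27.7, 4 in Bell-B, at 72.7 to 74.9 against 35.3 to 38.5, and 3 of the 4 tested in Cap-B+2D, at 96.5 to 99.6 against 16.7 to 17.9. Osteoblast markers were lower in Cap-B for 7 of 8 genes, at 456 to 472 CPM against 977 to 997, and in Cap-B+2D for 7 of 8, at 598 to 619 against 2376 to 2412. At the bell stage they were split, 3 higher and 2 lower, at 566 to 573 against 736 to 759.6. Tendon markers (Scx, Tnmd, Mkx and Thbs4) summed to 42.6 to 48.3 CPM in Cap-B against 72.6 to 74.9 in Cap-L, 174 to 182 against 212 to 215 at the bell stage and 43.2 to 46.8 against 135 to 138 after culture. Gene by gene they were split, with 1 higher and 2 lower in Cap-B, 1 and 2 in Bell-B and 1 and 3 in Cap-B+2D. Scx itself read 2.40, 3.06 and 2.22 CPM in Cap-L and 3.79, 4.23 and 3.62 in Cap-B. Epithelial markers were lower in Cap-B for 7 of the 8 tested, at 293 to 306 CPM against 400.1 to 442, in Bell-B for 3 of 9, and in Cap-B+2D for 8 of 9, at 30.4 to 31.8 against 303 to 331. Of the cartilage list, Matn1 and Snorc were too low to be tested, and the other 5 genes were lower in Cap-B, at a sum of 126 to 130.5 CPM against 264 to 280.1. In Bell-B 2 of these 5 were higher and 0 lower, at 51.9 to 52.9 against 50.5 to 54.1, and in Cap-B+2D 1 (Acan) was higher and 4 were lower, at 160.0 to 176 against 244 to 269.9. Macrophage markers were lower for 4 of 6 genes in Bell-B, at 117 to 121 CPM against 185 to 188, and for 4 of 6 in Cap-B+2D, at 146 to 158 against 216 to 229, while at the cap stage 1 was higher and 0 lower. Endothelial markers were lower for 6 of 6 genes in Cap-B+2D, at 161 to 167 CPM against 409 to 411, with sums of 395 to 404 against 436 to 447 at the cap and 500.2 to 513 against 543 to 559 at the bell stage. The part of these cells in the SLRP differences was not tested, and in bulk RNA fewer cells of a type and less RNA per cell cannot be told apart.

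The change of the side difference was tested itself. From the cap to the bell stage, the buccal-over-lingual difference shifted to the lingual side for 7 of 9 genes and to the buccal side for 2, by edgeR's interaction test at an adjusted p under 0.05 with no fold limit, beside 32.5% of all genes. The largest shift was that of Dcn (log2 -1.85 ± 0.05 SE, edgeR adjusted p = 8.37e-22), followed by Ogn at -1.38 and Aspn at -1.37. Prelp shifted the other way (log2 0.92 ± 0.10 SE, edgeR adjusted p = 2.28e-08). For culture against the uncultured cap stage, 8 of 9 shifted to the lingual side and 1 to the buccal side, beside 35.5% of all genes, with Lum the largest (log2 -1.49 ± 0.06 SE, edgeR adjusted p = 5.99e-19). Both tests use the Cap-L and Cap-B libraries. With all 24 libraries in 1 fit, the genes called fell from 7137 to 2581 and from 7842 to 4048. In that fit Fmod with stage (0.29 ± 0.08 in the fit of 12 libraries) and Prelp with culture (0.36 ± 0.09) were not called, at edgeR adjusted p of 0.304 and 0.165, the highest of their alternatives.

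In the lingual part, most SLRP genes were higher at the bell than at the cap stage. In Bell-L against Cap-L, 6 of 9 were higher and 0 lower, beside 20.0% of the 21425 genes tested, and the members' median was 1.67 against 0.00 over all genes. Ogn was 8.0-fold higher (log2 fold change 3.00 ± 0.05 SE, edgeR adjusted p = 6.82e-24), Omd 7.78-fold and Aspn 6.17-fold. Dcn, Lum and Bgn were 4.39-fold, 3.17-fold and 2.25-fold higher. Prelp (-0.30), Fmod (0.49) and Kera (0.03, edgeR adjusted p = 0.879) were not called, and without Cap-L replicate 2 or Bell-L replicate 1 Fmod was, at 0.54 and 0.51.

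Every tested member was higher in the lingual part after 2 days in culture, a comparison in which culture, age and separation from the buccal part cannot be told apart. In Cap-L+2D against Cap-L, 9 of 9 genes were higher, beside 35.4% of all genes tested, with a members' median of 1.44 and -0.03 over all genes. Omd rose 4.81-fold (log2 fold change 2.27 ± 0.06 SE, edgeR adjusted p = 2.01e-20) and Bgn 3.41-fold, and Prelp rose least, 2.21-fold. Aspn, Dcn, Fmod, Lum and Ogn rose 2.72-fold, 2.74-fold, 2.76-fold, 2.52-fold and 2.46-fold. Kera, at its low lingual level, was 2.44-fold higher (edgeR adjusted p = 1.64e-09). Set against Bell-L, 4 were higher and 4 lower in Cap-L+2D, beside 31.2% of genes. Prelp (2.73-fold), Kera (2.39-fold), Fmod (1.96-fold) and Bgn (1.51-fold) were higher in the cultured part, and Ogn (3.25-fold), Aspn (2.27-fold), Omd (1.62-fold) and Dcn (1.6-fold) lower. Lum was not called, at -0.33. These 3 lingual comparisons share libraries.

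In the buccal part, too, most members were higher at the bell stage. In Bell-B against Cap-B, 7 of 9 were higher and 1 lower, beside 18.7% of the 21992 genes tested, with medians of 0.65 and 0.01. Omd was 5.49-fold higher (log2 fold change 2.46 ± 0.07 SE, edgeR adjusted p = 1.18e-24), Ogn 3.09-fold and Aspn 2.4-fold. Fmod, Bgn, Prelp and Lum were higher at log2 fold changes of 0.79, 0.65, 0.63 and 0.50. Lum lay at the limit and was not called without Cap-B replicate 1 or Bell-B replicate 2, at 0.49 and 0.48. Kera was 2.15-fold lower (log2 fold change -1.11 ± 0.05 SE, edgeR adjusted p = 2.37e-18), and Dcn was not called, at 0.30.

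The cultured buccal part was compared with the cap stage in the same way. In Cap-B+2D against Cap-B, 3 of 9 were higher and 0 lower, a share near the 34.5% of all genes called, and 8 of 9 had an edgeR adjusted p under 0.05 before the fold limit, with medians of 0.29 and -0.02. The 3 were Prelp (2.86-fold, log2 fold change 1.52 ± 0.05 SE, edgeR adjusted p = 6.32e-23), Omd (2.34-fold) and Bgn (2.2-fold). Ogn, Aspn, Fmod, Dcn and Lum were not called, at log2 fold changes of 0.36, 0.29, 0.22, 0.20 and -0.15. Kera differed by -0.01 ± 0.05 (log2, SE), with a sign that changed between settings. Set against Bell-B, 2 were higher, Kera (2.14-fold) and Prelp (1.85-fold), and 5 lower in Cap-B+2D, beside 31.8% of genes. The 5 were Ogn (2.41-fold), Omd (2.35-fold), Aspn (1.97-fold), Lum (1.57-fold) and Fmod (1.49-fold). Bgn and Dcn were not called, at 0.48 and -0.10, and with no filter on low counts Bgn was, at 0.50. These 3 buccal comparisons share libraries too.

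**Figure D4:**
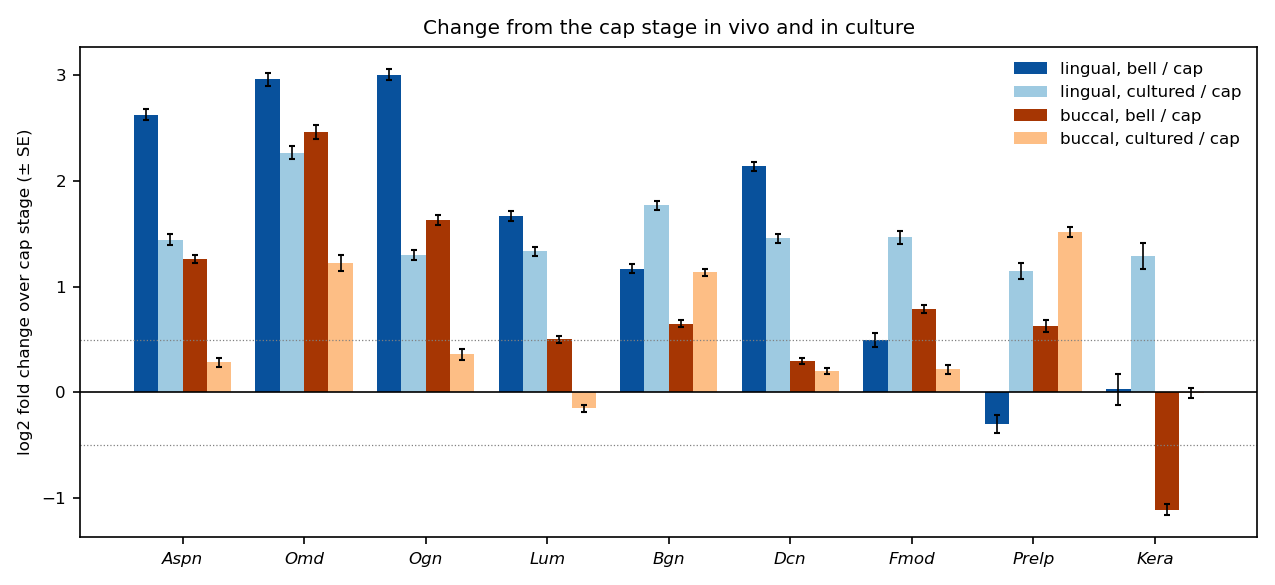
Bars give log2 fold changes over the uncultured cap stage, with SE, for the bell stage and for 2 days in culture in the lingual (blue) and buccal (orange) parts, and dotted lines mark 0.5. All 9 genes are higher in the cultured lingual part, by 1.15 to 2.27, whereas in the buccal part Omd, Bgn and Prelp pass the line in culture and the other 6 genes do not.

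Markers of muscle, blood and other cells moved with stage and culture as well. All 10 muscle markers were higher at the bell stage and in culture than at the cap stage, in both parts. Osteoblast markers were lower in Bell-L than in Cap-L for 7 of 8 genes, at 736 to 759.6 CPM against 977 to 997, and higher in Cap-L+2D for 6 of 8, at 2376 to 2412. In the buccal part they were higher in Bell-B for 3 of 8, at 566 to 573 CPM against 456 to 472 in Cap-B, and in Cap-B+2D for 5 of 8 with 2 lower, at 598 to 619. Macrophage markers were higher in Bell-L than in Cap-L for 6 of 6 genes, at 185 to 188 CPM against 56.5 to 59.8, and in Cap-L+2D for 6 of 6, at 216 to 229. They were higher than in Cap-B (60.6 to 67.0 CPM) for 5 of 6 in Bell-B, at 117 to 121, and for 5 of 6 in Cap-B+2D, at 146 to 158. Erythroid markers fell in culture for 6 of 6 genes in both parts, to 25.2 to 30.6 CPM in Cap-L+2D and 27.5 to 32.1 in Cap-B+2D from 2162 to 2679 in Cap-L and 2506 to 2621 in Cap-B. Endothelial markers were lower in Cap-B+2D than in Cap-B for 6 of 6 genes, at 161 to 167 CPM against 395 to 404, and epithelial markers for 9 of 9, at 30.4 to 31.8 against 293 to 306. Epithelial markers were higher in Bell-B than in Cap-B for 8 of 9, at 489 to 506 CPM, and in Bell-L than in Cap-L for 5 of 9, at 693 to 721 against 400.1 to 442, and in Cap-L+2D 5 of 9 were lower and 1 higher. Schwann markers were lower for 5 of 6 in Cap-B+2D than in Cap-B, with 1 higher, and for 4 of 6 in Cap-L+2D than in Cap-L. The part of these cells in the SLRP changes was not tested.

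In the undivided libraries, nearly all members were higher at the bell stage. In Bell-W against Cap-W, 8 of 9 genes were higher and 0 lower, beside 14.5% of the 20940 genes tested, with medians of 2.84 and -0.03. Omd was 18.3-fold higher (log2 fold change 4.19 ± 0.18 SE, edgeR adjusted p = 8.34e-05), Ogn 16.3-fold, Prelp 12.4-fold and Aspn 7.49-fold. Dcn (7.17-fold), Lum (6.72-fold), Fmod (4.99-fold) and Bgn (2.37-fold) were higher too. Kera was not called (-0.81 ± 0.44, edgeR adjusted p = 0.267), and with all 24 libraries in 1 fit it was lower at -0.72, edgeR adjusted p = 0.0272, the lowest of its alternatives. The 8 genes were called without Cap-W replicate 1 and without Bell-W replicate 3, as in the other 4 fits that left out 1 library.

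Many members did not lie between the parts in the undivided libraries. At the cap stage, 9 of the 10 genes were lower in every Cap-W library than in every Cap-L and Cap-B library, against 18.7% of the 17646 genes with a mean of at least 1 CPM in these libraries. At the bell stage 3 of 10 were (Dcn, Bgn and Kera), against 10.7% of 17929 genes. The Cap-L mean exceeded the Cap-W mean 2.71-fold for Aspn, 2.45-fold for Dcn and 3.92-fold for Prelp. For Kera, Bell-B exceeded Bell-W 45.5-fold and Bell-L exceeded it 3.12-fold. Muscle markers lay at 12.3 to 20.1 CPM in Bell-W, below both Bell-L and Bell-B, but at 26.5 to 29.9 CPM in Cap-W, above Cap-L (22.5 to 24.4) and below Cap-B (255 to 271). The sum of endothelial markers was 182 to 190.1 CPM in Cap-W, below both Cap-L (436 to 447) and Cap-B (395 to 404). Macrophage markers were higher in Bell-W than in Cap-W for 6 of 6 genes and endothelial markers for 6 of 6. The part of these cells in the differences was not tested.

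The collagens that SLRPs bind were counted in the same comparisons. Of 14 fibril-forming and fibril-associated collagen genes, 6 were higher and 2 lower in Cap-B than in Cap-L, with a list median of 0.43, beside 17.5% of all genes called. In Bell-B 2 were higher and 1 lower, beside 12.9%, and in Cap-B+2D 1 and 4, beside 25.1%. Col14a1, a fibril-associated collagen, was 15.3-fold higher in Cap-B (edgeR adjusted p = 4.1e-19), 2.92-fold in Bell-B and 2.87-fold in Cap-B+2D. From Cap-L, 9 were higher and 2 lower in Bell-L, beside 20.0% of all genes, and 12 higher and 0 lower in Cap-L+2D, beside 35.4%. Among them were Col14a1 (log2 fold changes of 3.69 and 4.01) and Col5a3 (3.09 and 3.88). From Cap-B, 6 were higher and 2 lower in Bell-B, beside 18.7%, and 10 higher and 0 lower in Cap-B+2D, beside 34.5%. In Bell-W against Cap-W 11 were higher and 1 lower, beside 14.5%.

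Enzymes that crosslink or trim collagen included a strong side difference at the cap stage for Lox, the lysyl oxidase that crosslinks collagen. Of the lysyl oxidase and procollagen proteinase list, 2 genes were higher and 1 lower in Cap-B of 9 tested, 1 and 1 in Bell-B of 10, and 1 and 4 in Cap-B+2D of 10, beside 17.5%, 12.9% and 25.1% of all genes called. Lox was 5.24-fold higher in Cap-B than in Cap-L (edgeR adjusted p = 4.01e-17), 4.76-fold higher in Bell-L than in Cap-L and 6.19-fold higher in Cap-L+2D than in Cap-L. At the bell stage its sides were close, at 327, 355 and 365 CPM in Bell-L and 326, 327 and 309 in Bell-B. They were close in culture too, at 453, 471 and 441 CPM in Cap-L+2D and 450, 434 and 422 in Cap-B+2D. The side difference of Lox thus shifted to the lingual side by stage (log2 -2.52) and by culture (-2.46), and both shifts passed the test. In culture, Loxl4 was 5.48-fold lower in Cap-B+2D than in Cap-L+2D.

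Genes that build the sugar chains were counted in the same way. Of 22 chondroitin and dermatan sulfate genes tested, 3 were higher and 3 lower in Cap-B, beside 17.5% of all genes called. In Bell-B 2 of the 21 tested were higher and 1 lower, beside 12.9%, and in Cap-B+2D 2 of 22 were higher and 5 lower, beside 25.1%. Csgalnact1, which starts chondroitin chains, was, among the called genes with an average log2 CPM of at least 2, the one with the largest fold in each, at 5.44-fold, 2.17-fold and 3.86-fold higher in the buccal part. In Cap-L+2D 10 were higher and 1 lower than in Cap-L, beside 35.4% of all genes called, and with that abundance limit the largest folds were those of Chpf2 (2.65-fold) and Chpf (2.52-fold), which are chondroitin-polymerizing factors. Of the 6 keratan sulfate genes tested at the cap stage, 1 was lower and 0 higher in Cap-B, and of the 7 tested in culture, 3 were lower and 0 higher in Cap-B+2D, beside the same shares of all genes. Among them was Chst2, a sulfotransferase, at 1.47-fold and 3.1-fold lower, the opposite direction to Kera. In Bell-B 1 of 7 was higher and 0 lower, beside 12.9% of all genes.

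By likeness over the 8 group means of log2 CPM, among 14046 genes with an average log2 CPM of at least 2, each member had a few near neighbours. The gene most like Aspn was Ogn (Pearson's r = 0.99), followed by Calhm2 and Jup at 0.98 and 0.98. Most like Dcn were Dchs2 (0.99), Atp1b2 and Kcne4, and most like Bgn were Rab5b (0.98), Htra1 and Trim25. Most like Kera were Cdon (0.98), B130024G19Rik and Dagla. Lum was most like Ctso (0.98), Ech1 and Tmem100, Fmod like Emb (0.96), Mdga1 and Tmem132e, and Prelp like Aspscr1 (0.96), Syt6 and Ebf4. Ogn was most like Dcxr (0.99), Sqor and Chmp2a, and Omd like Samd9l (0.99), Arhgap30 and Nbeal2. Epyc, at its low counts, was most like Col20a1 (0.93), Ino80dos and Pdzd2, which rests on few reads. With 8 points drawn from shared libraries and 14046 genes to choose from, such values are descriptions, and over the 24 libraries the r of Aspn with Jup was 0.65.

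For each member the next gene on either side, in order of start position, was followed in the same 3 side comparisons. Genes with a mean under 1 CPM were passed over unless they were SLRP genes, and Cenpp, whose exons overlap those of Aspn, was not among the genes followed. Nol8, next to Ogn, had log2 fold changes of -0.25, 0.09 and 0.07 for the buccal over the lingual part at the cap stage, at the bell stage and in culture, none of them called. Btg1, 856799 bases from Dcn, and Atp2b1, 1231951 bases beyond Epyc, were not called in these 3 comparisons either. Ecm2, beside Aspn, was lower in Bell-B (-0.65) and in Cap-B+2D (-0.80), the direction of Aspn. Optc, beside Prelp, was higher in Cap-B (0.65), Bell-B (0.66) and Cap-B+2D (0.94), the direction of Prelp. Btg2, beside Fmod, was lower in Bell-B (-0.60) and Cap-B+2D (-0.94), whereas Fmod was higher in Bell-B and not called in Cap-B+2D. Of the genes flanking Bgn, Haus7 was not called in any side comparison, while Atp2b3, at low counts, was higher in Cap-B (1.27) and lower in Bell-B (-0.85).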

How the data were processed

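RNA of 24 libraries was sequenced by the authors. Per the file headers, whole-number counts per gene came from featureCounts (paired reads, exons, strand not used, Ensembl GRCm39.107) and were deposited as 1 table of all 24 libraries; the submitters' notes name FastQC 0.12.1, Trimmomatic 0.39, Bowtie 1.2.3 and Subread 2.0.3, and the methods name other trimming and alignment tools. The deposited counts ran from 20581720 to 39266497 per library, and floors (3 counts) cover counting error only. Groups came from the labels. The 10 members, the gene lists and the tests were chosen with earlier results of these data known.

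Counts were tested with edgeR 4.0.16 (R 4.3.3): filterByExpr, TMM, and the quasi-likelihood test with Benjamini-Hochberg adjustment over all genes tested. A gene was called at an adjusted p under 0.05 and a log2 fold change beyond 0.5, and an interaction at an adjusted p under 0.05. Side comparisons and Bell-W against Cap-W used 6 libraries each, comparisons within a side 9 and interactions 12. Levels are TMM-scaled CPM, and RPKM divides by the union of exon bases. No p was adjusted over the members alone. An exact permutation test of 3 against 3 libraries cannot go below p = 0.1 and was not used.

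Named were all 10 members, the 3 genes most alike to each member, and the next genes on the chromosome. These next genes were taken in order of start among genes with a mean of at least 1 CPM and the SLRP genes. Of each other list, the 2 called genes with the largest fold (average log2 CPM of at least 2) were named, and some of them are printed. Optc and Atp2b3 have low counts. Cell type lists were counted. Alternatives were DESeq2 1.42.0, RLE scaling, 2 other filters, 1 fit of all 24 libraries, scaling without the 100 most abundant genes, a replicate block and leaving out each library. Fits were tested on simulated data. Of simulated 2-fold changes, 91 of 98 were called for Cap-B against Cap-L and 85 of 99 for Bell-L against Cap-L. For the change by stage 78 of 100 were called, and for Bell-W against Cap-W only 44 of 97. Replicate libraries differed by more than sampling noise, which does not show that they come from separate animals. The excess was uneven. As chi-square per degree of freedom of replicate pairs, it was 1.32 to 1.49 in Cap-B, near sampling noise. It was 12.8 to 61.8 in Bell-W and 7.89 to 161 in Cap-W. Each library was counted as 1 all the same.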

Additional observations from a re-analysis of the deposited data

Results flagged for a closer look

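The buccal-over-lingual difference changed between the cap and the bell stage for all 9 tested SLRP genes, by the interaction test in edgeR at an adjusted p under 0.05, beside 32.5% of all genes. The change on the log2 scale was -1.85 for Dcn, -1.38 for Ogn, -1.37 for Aspn, -1.18 for Lum, -1.15 for Kera, -0.53 for Bgn and -0.51 for Omd. It was 0.92 for Prelp and 0.29 for Fmod, the 2 genes that shifted to the buccal side, and in the fit of all 24 libraries Fmod was not called (0.31, edgeR adjusted p = 0.304, the highest of its alternatives).

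The same difference changed between the uncultured cap stage and the cultured parts for all 9, by the same test, beside 35.5% of all genes. The change was -1.49 for Lum, -1.30 for Kera, -1.26 for Dcn, -1.26 for Fmod, -1.17 for Aspn, -1.05 for Omd, -0.95 for Ogn and -0.64 for Bgn, with Prelp at 0.36, and in the fit of all 24 libraries Prelp was not called (0.40, edgeR adjusted p = 0.165, the highest of its alternatives). Both tests share the Cap-L and Cap-B libraries.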

How the results depend on the processing

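Of 1512 values of the members' fold changes under the alternatives, 1495 kept their direction and their side of the threshold, and 8 of 108 results changed in at least 1. Kera in Cap-B+2D against Cap-B, never called, was at -0.01 and became 0.0093 with RLE scaling, 0.0089 with DESeq2, 0.0267 with no filter, 0.0083 without the 100 most abundant genes, 0.0113 with all 24 libraries in 1 fit and -0.053 to 0.0351 when 1 library was left out (0.0318 without Cap-B replicate 2). Kera in Bell-L against Cap-L, also never called, was at -0.013 and -0.0231 without Cap-L replicate 1 or 2, in a range of -0.0231 to 0.11 with 1 library left out. Bgn in Cap-B+2D against Bell-B was called with no filter, at 0.50. With no filter Epyc was called higher in Bell-B than in Bell-L (2.13, edgeR adjusted p = 0.00394) and lower in Cap-B+2D than in Bell-B (-1.76, edgeR adjusted p = 0.00462).

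Over all genes, the calls of Bell-W against Cap-W numbered 3037, rose to 5887 with all 24 libraries in 1 fit, and ran from 1758 (without Cap-W replicate 3) to 3057 with 1 library left out, at 1832 without Bell-W replicate 2. The all-library fit lowered the calls of the change by stage from 7137 to 2581 and by culture from 7842 to 4048. The cause was not tested. Libraries with the same replicate number did not deviate together (mean correlations from -0.15 to 0.09 across comparisons). With the replicate block, calls were 3562 for Cap-B against Cap-L and 2791 for Bell-W against Cap-W, and no member's call changed. The low counts of Epyc, 0 to 12 per library, limit what its fold changes show.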

Other observations

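Genes that bind SLRPs, and proteoglycans outside the family, also differed between the parts. Of 10 ligands and receptors, 3 were higher and 3 lower in Cap-B than in Cap-L, beside 17.5% of all genes called. Tgfb2, a growth factor of the TGF-beta family, was 4.32-fold higher in Cap-B (edgeR adjusted p = 1.93e-16), 3.39-fold higher in Bell-L than in Cap-L and 4.02-fold higher in Cap-L+2D than in Cap-L, and its side difference shifted by -2.36 (log2) with stage. Tgfb3 was lower in the buccal part in all 3 settings, by 2.19-fold, 1.61-fold and 2.79-fold. Met, the receptor for hepatocyte growth factor, was 5.39-fold higher in Cap-B+2D than in Cap-L+2D and 4.05-fold higher than in Cap-B. The muscle marker sum was highest in Cap-B+2D as well, and its part was not tested.

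Of the 20 other proteoglycan genes, 8 were higher and 5 lower in Cap-B+2D than in Cap-B, beside 34.5% of all genes called. Acan, the large aggregating proteoglycan of cartilage, was 21.7-fold higher there (edgeR adjusted p = 1.47e-27) and 3.38-fold higher in Cap-L+2D than in Cap-L, while Col2a1 was 2.02-fold lower in Cap-B+2D than in Cap-L+2D. Vcan, the related versican, was 2.26-fold lower in Cap-B+2D than in Cap-L+2D.

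Of 8 further SLRP genes (Ecm2, Optc, Chad, Chadl, Nyx, Tsku, Podn and Podnl1), 5 of 7 tested were higher and 0 lower in Cap-L+2D than in Cap-L, beside 35.4% of all genes called. In Bell-W against Cap-W, 3 of 8 were higher and 0 lower, beside 14.5%. Podn (podocan) was 2.17-fold lower in Bell-B than in Bell-L and 2.56-fold higher in Cap-B+2D than in Cap-B. Podnl1 was lower in the buccal part at the cap stage (log2 -0.57) and in culture (-0.80). At the bell stage its mean was higher in the buccal part and not called. It read 9.74 ± 0.603 CPM in Bell-B and 7.80 ± 0.976 in Bell-L (SD, n = 3).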
